A study of Mus musculus with 24 samples.

Results

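Eukaryotic initiation factor 2 (eIF2), built of alpha, beta and gamma subunits, binds GTP and the initiator methionyl-tRNA, and this ternary complex brings the first amino acid to the small ribosomal subunit. Each round of initiation leaves eIF2 bound to GDP, and eIF2B, a complex of alpha, beta, gamma, delta and epsilon subunits, exchanges the GDP for GTP. Stress kinases phosphorylate the alpha subunit of eIF2, which then holds eIF2B back. Red cell precursors rely on one of these kinases, the haem-regulated inhibitor encoded by Eif2ak1, to match globin synthesis to haem. The mRNAs described here are those of the eIF2 subunits Eif2s1 (alpha), Eif2s2 (beta) and Eif2s3x (gamma) and of the eIF2B subunits Eif2b1 (alpha), Eif2b2 (beta), Eif2b3 (gamma), Eif2b4 (delta) and Eif2b5 (epsilon).

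All probe sets annotated to the 8 gene symbols were taken, and each gene was followed through the probe set with the highest mean log2 signal over the arrays. This gave 17 probe sets for 7 of the 8 genes, out of 45101 probe sets on the array. Eif2s1 has no probe set of its own in the annotation used and was not analysed here. Of the 17 probe sets 16 passed the filter on dim signals, the exception being the second one of Eif2b5, and all 7 genes were among the 11035 genes tested.

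The cells were immortalized mouse erythroblasts, grown in serum-free medium with erythropoietin (Epo), stem cell factor (SCF) and dexamethasone (Dex). They were left untransduced or received a lentivirus with a control construct, an shRNA against Rps19 (a protein of the small ribosomal subunit) or an shRNA against Rpl11 (a protein of the large subunit), with 3 biological replicates in each of the 4 groups. Cells were treated with cycloheximide, which holds ribosomes on mRNA, and frozen, 3 days after delivery where a construct was given. Each lysate ran on a sucrose gradient, and RNA of the polysomal fractions, up to the 80S peak, and of all other fractions, the subpolysomal pool, went onto separate arrays, so that 12 gradients gave 24 arrays. The titles and the characteristics of the control construct use different codes, ev and sc, and the labels do not say how many clones the line holds. The third Rps19 gradient carries the word puro, which the labels do not explain and the other gradients lack.

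Recruitment below is the log2 polysomal minus the log2 subpolysomal signal of a gradient, and level is the mean of both. Total RNA was not on the arrays, so the level is only a proxy for the amount of an mRNA, and fewer cells of a kind and less RNA per cell cannot be told apart in it. Changes are differences of group means with their standard error (SE), n = 3 gradients per group, and each p was taken from limma's fit and adjusted over all 11035 genes, with 0.05 as the threshold. The authors' arrays are all scaled to nearly the same mean signal, so a shift of the whole mRNA mass between the pools leaves no trace.

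Of 10 erythroblast markers with a probe set of their own 9 passed the filter, among them Klf1, Gata1, Alas2 and Tfrc, while Hba-a1 did not and Hbb-b1 and Hbb-bt had none. No lymphoid (0 of 3) and no stromal or endothelial (0 of 4) marker passed, against 3 of 6 myeloid and 3 of 4 megakaryocyte markers, where Pf4 was the brightest. The summed level of the myeloid list was 666 to 786 signal units in untransduced cells, 688 to 766 with the control construct, 570 to 761 with the Rps19 shRNA and 461 to 651 with the Rpl11 shRNA. That of the megakaryocyte list was 2564 to 5972, 2144 to 6355, 1893 to 4383 and 2901 to 4545 in the same order. For the erythroblast list it was 42107 to 71484, 46553 to 70950, 37253 to 50240 and 48337 to 55069. The part of these cell types in the results was not tested. Both targets fell under their own shRNA, Rps19 by 1.53 (SE 0.16) and Rpl11 by 2.66 (SE 0.25) on the log2 scale of level. Median signals of the polysomal arrays were 46.8 to 49.0 with the Rpl11 shRNA and 58.9 to 68.9 in the other groups. Those of the subpolysomal arrays were 65.7 to 86.7 and 97.2 to 125. The arrays of the Rpl11 shRNA thus stood apart. Their log2 ratio of 3′ to 5′ Gapdh control probe sets, a sign of RNA integrity, was 0.99 and −0.46 in gradient 1 (polysomal and subpolysomal), 1.23 and 2.10 in gradient 2 and 3.31 and 3.90 in gradient 3, against −0.42 to 0.42 on the other 18 arrays.

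Stretches around the annotated start of transcription are shown for the members with the clearest differences, because the first bases of an mRNA can carry a pyrimidine tract through which growth signals set its translation. They come from RefSeq (GRCm38.p6) and run from 10 bases before the start to 20 bases from it, with an unbroken run of C and T from the first transcribed base in capitals. Eif2s3x lies at chrX:94212632-94212661 on the minus strand, Eif2b2 at chr12:85219471-85219500 on the plus strand, Eif2b4 at chr5:31193120-31193149 on the minus strand and Eif2b5 at chr16:20498807-20498836 on the plus strand.
Eif2s3x: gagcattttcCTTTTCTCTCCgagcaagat
Eif2b2: ccgagcggaagttgacctctctcggcccgg
Eif2b4: cccagtgcacgccggaagttgtagtccgct
Eif2b5: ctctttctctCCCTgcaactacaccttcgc
Eif2s3x opened with C and a run of 11 pyrimidines, and Eif2b5 with a run of 4, whereas Eif2b2 and Eif2b4 opened with G. The entries cover 7 members, with Eif2s1, which was not analysed, and without Eif2b3. A C followed by further pyrimidines to a run of at least 5 stood at the annotated start of 1 of these 7, Eif2s3x. The same held for 2.51% of all 32851 annotated starts on the given strand. The starts annotated for Rps19 and Rpl11, mRNAs known to carry the tract, did not show it, and the start used in these cells was not measured, so these letters describe the annotation alone.

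In cells without an shRNA against a ribosomal protein the members leaned to the subpolysomal pool. In untransduced cells 6 of the 7 mRNAs were lower on polysomes, all but Eif2s2, where 40.9% of all genes passed this test in either direction. With the control construct 5 of 7 were lower, all but Eif2s2 and Eif2b3, against 36.7% of all genes. The median recruitment of the members was −0.43 and −0.49 in these groups, beside −0.09 and −0.08 over all genes, and all 21 single values lay below 0 in either group. As a share of signal, the polysomal pool held a median of 42.6% in untransduced cells, with members from 38.7% to 46.4%, and 41.6% with the control construct, from 40.1% to 47.1%.

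Both shRNA groups looked different in the same test. With the Rps19 shRNA 2 of 7 members were lower on polysomes, Eif2b3 (−0.54, SE 0.15, adjusted p = 0.0183) and Eif2b5 (−0.33, SE 0.10, adjusted p = 0.0252), against 36.6% of all genes called. With the Rpl11 shRNA 1 of 7 was called, and it was higher on polysomes, Eif2b2 (0.29, SE 0.10, adjusted p = 0.047), against 28.6% of all genes. The median recruitment was −0.07 with the Rps19 shRNA and 0.05 with the Rpl11 shRNA, where all genes had −0.08 and −0.04, and 16 and 9 of the 21 single values lay below 0. The polysomal share had a median of 48.9% and 50.9%. A value passing in one group and not in another is no test of a difference between them, which follows gene by gene. The zero of this scale depends on how the pools are scaled. With each array centred on its median, the median of all genes moves to between 0.55 and 0.72, all 7 members turn positive in all 4 groups, and relative to that median 0, 0, 5 and 4 of the 7 lie above it in untransduced, control, Rps19 and Rpl11 cells, as they do without the centring, which moves all genes of an array alike. With all arrays quantile normalized, which does not, the counts above the median of all genes were 1, 1, 1 and 3, and the members' median with the Rps19 shRNA was −0.19 beside 0.06 over all genes. Without 1 gradient, the count of lower members in untransduced cells was between 3 and 6, with 3 when untransduced gradient 2 or 3 was left out, the control count fell to 4 without any 1 control gradient, which ended the call of Eif2b1, the Rps19 calls were lost without Rps19 gradient 1 or 3 (Eif2b3) and 1 or 2 (Eif2b5), and the single call of the Rpl11 shRNA was lost without any 1 gradient other than Rpl11 gradient 2.

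**Figure D1:**
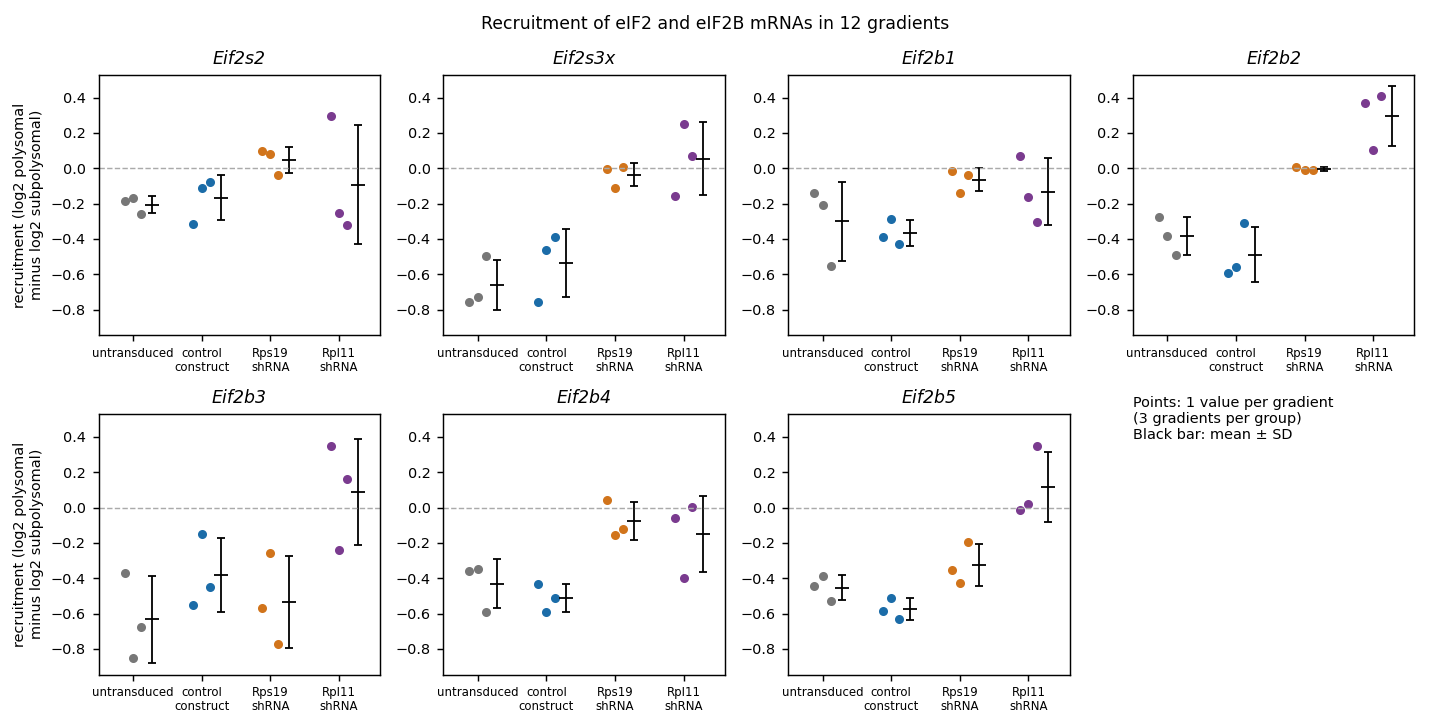
Recruitment (vertical axis, log2 polysomal minus log2 subpolysomal signal) of the 7 measured members in untransduced cells and with the control construct, the Rps19 shRNA and the Rpl11 shRNA. Points are the 3 gradients of a group, the black bar is mean ± SD, and the dashed line marks equal signal in both pools. All points of the untransduced and control construct groups lie below the line.

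The question of the comparisons with the control construct is whether a shortage of either ribosomal protein moves these mRNAs between the pools. Under the Rps19 shRNA 6 of the 7 members had a higher recruitment than with the control construct and 0 of 7 passed the threshold, where 0.87% of all genes passed. The median change of the members was 0.30, beside 0.01 over all genes. Values of the 2 groups did not overlap in those 6 members, all upward, and 12.7% of all genes showed that upward. At an unadjusted p under 0.05 there were 3 members, Eif2s3x, Eif2b2 and Eif2b4, and 14.9% of all genes. Under the Rpl11 shRNA all 7 members were above the control construct, with a median change of 0.47 beside 0.02 over all genes, and 2 of 7 rose past the threshold, Eif2b2 and Eif2b5, where 5.67% of all genes were called. The groups did not overlap in 4 of the 7, all upward, as in 12.9% of all genes. Both comparisons share the 3 control gradients, so the 2 sets of values are not independent. The control construct itself left 0 of 7 members changed against untransduced cells, where 0% of all genes passed with limma and 497 genes had an unadjusted p under 0.05.

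Among the eIF2B subunits, Eif2b2 and Eif2b5 differed most with the Rpl11 shRNA. Eif2b2, the beta subunit, which belongs to the regulatory part of eIF2B together with the alpha and delta subunits, had recruitments of −0.27, −0.39 and −0.49 in untransduced cells and of −0.60, −0.56 and −0.31 with the control construct. They were 0.01, −0.01 and −0.01 with the Rps19 shRNA and 0.37, 0.10 and 0.41 with the Rpl11 shRNA. Every gradient with the Rps19 or the Rpl11 shRNA lay above all 6 of the untransduced and control construct groups. Those of the Rpl11 shRNA lay above those of the Rps19 shRNA. With the Rpl11 shRNA it rose by 0.78 (1.72-fold, SE 0.14, adjusted p = 0.0136), and the change with the Rps19 shRNA was 0.49 (SE 0.14, adjusted p = 0.134). In signal units its polysomal values were 2162, 1369 and 1347 with the control construct and 2048, 2221 and 2251 with the Rpl11 shRNA. The subpolysomal values were 3269, 2025 and 1673 with the control construct and 1581, 2069 and 1691 with the Rpl11 shRNA. Neither pool alone separated the groups for Eif2b2, and the separation appeared in the ratio of the 2 pools of a gradient. In this gene the call was lost without control gradient 1 or 2 or Rpl11 gradient 3 (adjusted p up to 0.0619). With only Rpl11 gradient 1 the change was 0.86. The arrays of that gradient were nearest to those of the other groups in the Gapdh ratio. Between its 2 pools, however, that ratio differed more (0.99 and −0.46) than in Rpl11 gradient 2 (1.23 and 2.10) or 3 (3.31 and 3.90).

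Eif2b5, the epsilon subunit with the catalytic exchange activity, had recruitments of −0.45, −0.39 and −0.53 in untransduced cells and of −0.59, −0.51 and −0.63 with the control construct. With the Rps19 shRNA they were −0.35, −0.43 and −0.20, above the control construct and partly within the untransduced range. With the Rpl11 shRNA they were −0.01, 0.02 and 0.35, above all other 9 gradients. It rose by 0.69 with the Rpl11 shRNA (1.62-fold, SE 0.14, adjusted p = 0.0196), and with the Rps19 shRNA it stood at 0.25 (SE 0.14, adjusted p = 0.433). Its subpolysomal signal alone was 1860, 1731 and 1814 with the control construct and 1457, 1233 and 955 with the Rpl11 shRNA, without overlap, while the polysomal signals of 1237, 1213 and 1170 met 1445, 1250 and 1216. The difference in the subpolysomal pool by itself was not past the threshold (−0.59, SE 0.19, adjusted p = 0.0757). The recruitment call was lost without any 1 control gradient or Rpl11 gradient 3 (adjusted p up to 0.0755), and with only Rpl11 gradient 1 the change was 0.56 (adjusted p = 0.114).

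Eif2b4, the delta subunit, had recruitments of −0.36, −0.35 and −0.59 in untransduced cells and of −0.43, −0.59 and −0.51 with the control construct. They were 0.05, −0.16 and −0.12 with the Rps19 shRNA and −0.06, −0.40 and 0.00 with the Rpl11 shRNA. All gradients with the Rps19 or the Rpl11 shRNA lay above those with the control construct. The mean change was 0.43 with the Rps19 shRNA (SE 0.15, adjusted p = 0.196) and 0.36 with the Rpl11 shRNA (SE 0.15, adjusted p = 0.187). Neither passed the threshold. Eif2b1, the alpha subunit of the regulatory part, had −0.39, −0.29 and −0.43 with the control construct, −0.02, −0.14 and −0.04 with the Rps19 shRNA and 0.07, −0.16 and −0.31 with the Rpl11 shRNA. The change was 0.30 (SE 0.15, adjusted p = 0.388) with the Rps19 shRNA, and 0.24 (SE 0.15, adjusted p = 0.412) with the Rpl11 shRNA, whose values overlapped the control's.

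Eif2b3, the gamma subunit, which pairs with epsilon in the catalytic part, was the exception under the Rps19 shRNA. Its recruitments were −0.55, −0.15 and −0.45 with the control construct and −0.57, −0.26 and −0.78 with the Rps19 shRNA, which overlapped. With the Rpl11 shRNA they were 0.35, −0.24 and 0.16, so 2 of the 3 gradients lay above all others. The change was −0.15 (SE 0.21, adjusted p = 0.804) with the Rps19 shRNA and 0.47 (SE 0.21, adjusted p = 0.223) with the Rpl11 shRNA.

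Of the eIF2 subunits themselves, Eif2s3x, the gamma subunit that holds GTP and the initiator tRNA, had the larger differences. Its recruitments were −0.76, −0.73 and −0.50 in untransduced cells and −0.76, −0.47 and −0.39 with the control construct. They were −0.00, −0.11 and 0.01 with the Rps19 shRNA and −0.16, 0.25 and 0.07 with the Rpl11 shRNA. Again each of the 6 gradients with the Rps19 or the Rpl11 shRNA lay above the 6 of the untransduced and control construct groups. The change of 0.59 with the Rpl11 shRNA missed the threshold narrowly (SE 0.16, adjusted p = 0.0526), and that of 0.50 with the Rps19 shRNA did not reach it (SE 0.16, adjusted p = 0.164). The polysomal signals with the Rps19 shRNA, 12074, 10394 and 11805, spanned those of the control construct, 11587, 11368 and 11008. Its subpolysomal signals, 12102, 11242 and 11761, all lay under those of the control construct, 19585, 15698 and 14439 (−0.49, SE 0.24, adjusted p = 0.421).

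Eif2s2, the beta subunit, which contacts the factors eIF5 and eIF2B, had the recruitments nearest to 0 of the 7 members in untransduced cells and with the control construct on the deposited scaling, but not with either shRNA. It had −0.19, −0.17 and −0.26 in untransduced cells, −0.31, −0.11 and −0.08 with the control construct, 0.10, 0.08 and −0.04 with the Rps19 shRNA and 0.29, −0.25 and −0.32 with the Rpl11 shRNA. The Rps19 values all lay just above the control values (0.22, SE 0.17, adjusted p = 0.615), and the Rpl11 values lay on both sides of them (0.07, SE 0.17, adjusted p = 0.848). The kept probe set of Eif2s2 is bright, at 0.28 to 0.47 of the highest signal on the polysomal and 0.13 to 0.27 on the subpolysomal arrays, and whether the signal flattens there was not tested.

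**Figure D2:**
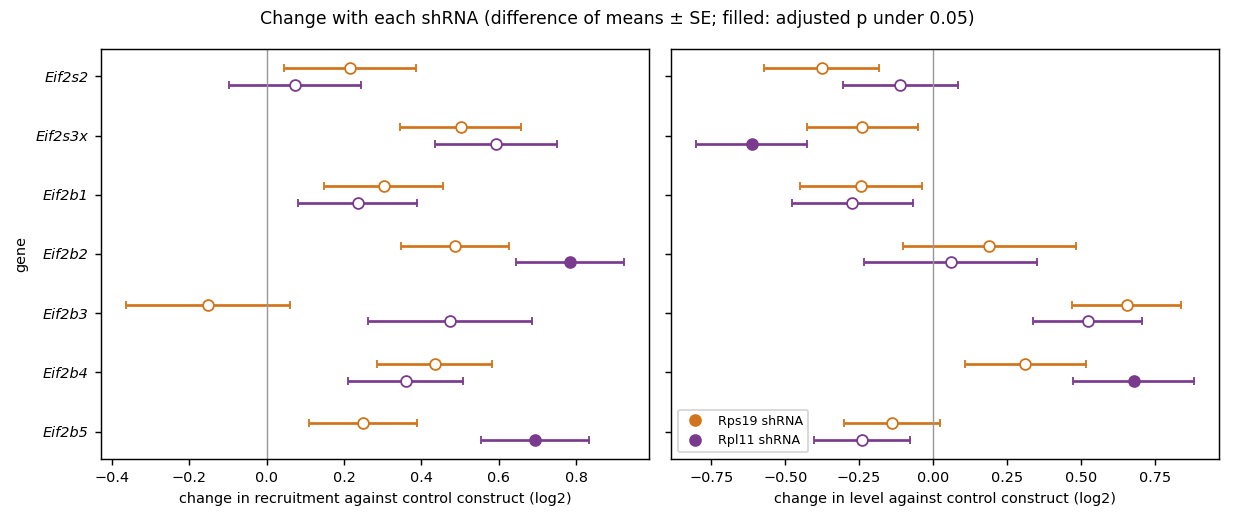
Change with each shRNA against the control construct for the 7 members, in recruitment (left) and level (right), as difference of means ± SE on the log2 scale (n = 3 gradients per group). Filled points passed the threshold. In recruitment these are Eif2b2 and Eif2b5 with the Rpl11 shRNA, and in level Eif2s3x and Eif2b4 with the Rpl11 shRNA.

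The 2 shRNAs were also set against each other. In recruitment 0 of 7 members passed, where 0.553% of all genes did. Eif2b3 (−0.62 for Rps19 minus Rpl11, SE 0.21, adjusted p = 0.194), Eif2b5 (−0.44, SE 0.14, adjusted p = 0.163) and Eif2b2 (−0.30, SE 0.14, adjusted p = 0.337) were lower with the Rps19 shRNA in every gradient, without overlap. The 95% intervals of the difference ran from −1.09 to −0.15, from −0.75 to −0.14 and from −0.61 to 0.01. The other 4 members overlapped, with differences between −0.09 and 0.14, and Eif2s2 had the widest interval among them, from −0.24 to 0.52.

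Levels moved in both directions. With the Rps19 shRNA 0 of 7 members changed in level, against 0.807% of all genes. With the replicate number as a block it was also 0 of 7, with 17 calls over all genes in place of 89. Same-number gradients of these 2 groups deviated together in level. Eif2b3 came nearest, with levels of 9.30, 9.14 and 8.99 with the control construct and of 9.97, 9.44 and 9.98 with the Rps19 shRNA, all above the control (0.65, SE 0.18, adjusted p = 0.134). Eif2s2 was at 14.06, 14.02 and 14.01 and at 13.88, 13.48 and 13.59 in these groups, all below it (−0.38, SE 0.19, adjusted p = 0.391). With the Rpl11 shRNA 2 of 7 members changed in level, 1 in each direction, against 20.2% of all genes, so this count is close to the background. The control construct left 0 of 7 changed against untransduced cells, and 0% of all genes with limma, where 260 genes had an unadjusted p under 0.05. Between the shRNAs 0 of 7 differed in level, against 20.5% of all genes.

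Eif2s3x had levels of 13.91, 13.85 and 13.44 in untransduced cells, 13.88, 13.71 and 13.62 with the control construct, 13.56, 13.40 and 13.53 with the Rps19 shRNA and 13.51, 12.94 and 12.92 with the Rpl11 shRNA. Gradients 2 and 3 of the Rpl11 shRNA were the lowest of the 12, and they are the ones with the highest Gapdh ratios, whose part in the result was not tested. It fell by 0.61 (SE 0.19, adjusted p = 0.0402) on the log2 scale. Eif2b4 had a level of 11.09 ± 0.10 (SD, n = 3) in untransduced cells, single levels of 11.01, 10.92 and 11.13 with the control construct, 11.36, 11.14 and 11.50 with the Rps19 shRNA and 12.09, 11.80 and 11.20 with the Rpl11 shRNA. All Rpl11 values lay above all control values, with the third close to them, and the rise was 0.68 (1.60-fold, SE 0.21, adjusted p = 0.0384). With only Rpl11 gradient 1 kept, the change was −0.22 (adjusted p = 0.563) for Eif2s3x and 1.07 (adjusted p = 0.0157) for Eif2b4. Without 1 gradient the adjusted p ran from 0.0045 to 0.134 for Eif2s3x, lost without untransduced 2, any control or Rps19 gradient or Rpl11 gradient 2 or 3, and from 0.0102 to 0.113 for Eif2b4, lost without untransduced 1 or 2, any control gradient, Rps19 gradient 3 or Rpl11 gradient 1 or 2. With each array centred on its median the median change of all genes moved from −0.08 to 0.32 and the share of higher calls from 43.2% to 89.6%, and Eif2s3x then stood at −0.21 (adjusted p = 0.38), Eif2b4 at 1.08 (adjusted p = 0.00268) and Eif2b3, not called otherwise, at 0.92 (adjusted p = 0.00601).

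**Figure D3:**
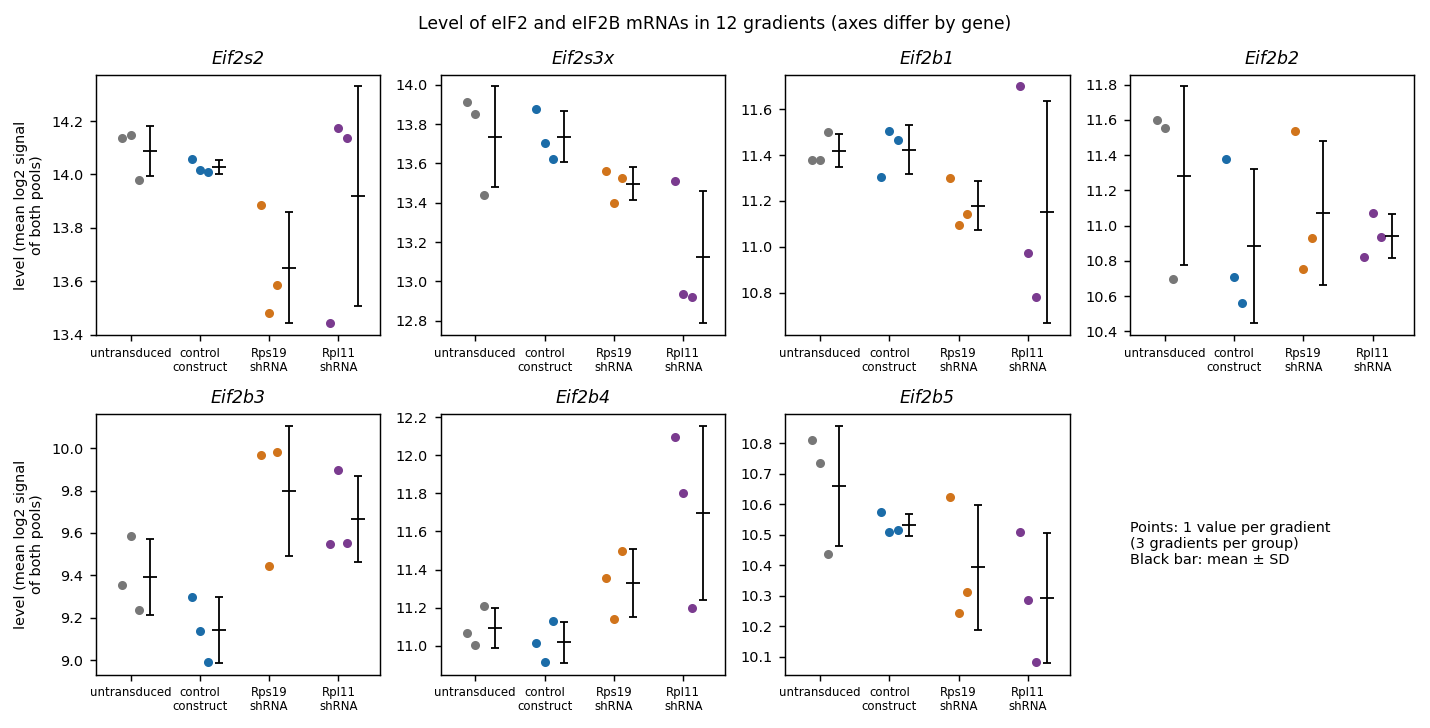
Level (vertical axis, mean log2 signal of both pools, own scale for each gene) of the 7 members in the 4 groups, with points for the 3 gradients and mean ± SD in black. Eif2s3x is lowest in Rpl11 gradients 2 and 3, and Eif2b3 lies higher with either shRNA than with the control construct.

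The pools on their own show where the signal differed. In the polysomal pool 0 of 7 members passed with the Rps19 shRNA (1.16% of all genes) and 2 of 7 were higher with the Rpl11 shRNA (22.4% of all genes), Eif2b3 by 0.76 (SE 0.15, adjusted p = 0.0072) and Eif2b4 by 0.86 (SE 0.20, adjusted p = 0.0137). In the subpolysomal pool 0 of 7 passed with the Rps19 shRNA (0.136% of all genes) and 1 of 7 was lower with the Rpl11 shRNA (9.49% of all genes), Eif2s3x, which fell by 0.91 (SE 0.24, adjusted p = 0.0422). Polysomal signals of Eif2b3 were 512, 527 and 428 with the control construct and 836, 869 and 787 with the Rpl11 shRNA, well apart. The median change over the members was 0.01 in the polysomal and −0.26 in the subpolysomal pool with the Rps19 shRNA, and 0.11 and −0.33 with the Rpl11 shRNA, beside 0.00, 0.02, −0.09 and −0.08 over all genes.

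Several members have more than 1 probe set, which gives another reading of the same RNA. All 6 probe sets of Eif2s2 had a positive recruitment change with either shRNA, from 0.22 to 1.06 with the Rps19 shRNA and from 0.07 to 0.59 with the Rpl11 shRNA, and the kept, brightest one gave the smallest of them in both. None of the 6 passed over 22490 probe sets. The 3 probe sets of Eif2s3x gave 0.28 to 0.59 and 0.10 to 0.63, and the 3 of Eif2b2 gave 0.18 to 0.49 and 0.12 to 0.78, where the kept one alone passed (adjusted p = 0.0271 with the Rpl11 shRNA). The level of Eif2s3x under the Rpl11 shRNA was lower in all 3 of its probe sets, each past the threshold, from −0.59 to −1.67. For Eif2s2, 2 of 6 probe sets passed in level under the Rpl11 shRNA, at −0.51 and −0.998, whereas the kept one stood at −0.11. The one at −0.998 was dim and close to the filter's cutoff, with a mean log2 signal of 6.23 beside 13.92 for the kept one. Another, not past the threshold, stood at 0.05, so the probe sets of Eif2s2 disagree in size and in sign.

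**Figure D4:**
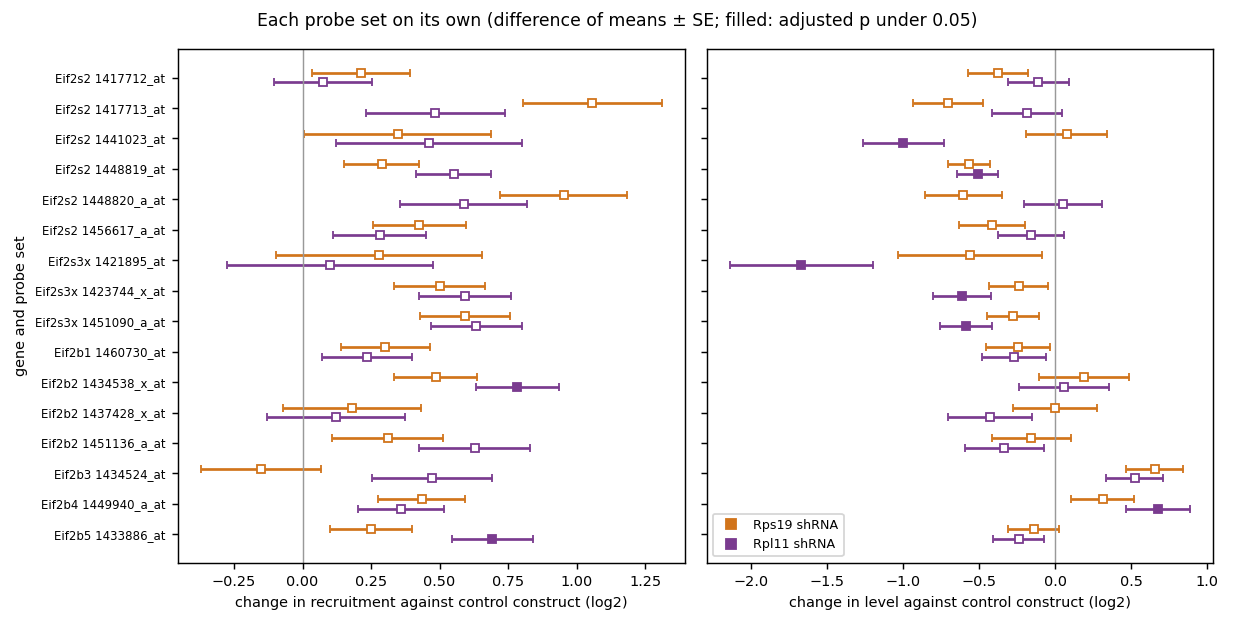
Each probe set of the members that passed the filter, fitted on its own, with the change in recruitment (left) and level (right) against the control construct (difference of means ± SE, log2, n = 3 gradients per group). Filled squares passed the threshold over 22490 probe sets, and every probe set but that of Eif2b3 with the Rps19 shRNA lies above 0 in recruitment.

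By their course over the 12 gradients, Eif2s2 and Eif2b1 were the closest pair of members, with a root mean square difference of 0.14 in recruitment after each was centred on its own mean, and 0.344% of all genes lay closer to Eif2s2. Eif2b2 and Eif2b5 differed by 0.16 (0.553% closer to Eif2b2). Eif2s3x and Eif2b3 were the farthest pair at 0.38. Among all genes tested, the most alike to Eif2s3x were Lamp1 (0.11) and Actg1 (0.12), where the median gene was at 0.48. Those for Eif2b2 were Atp5a1 and P4hb, for Eif2b5 Arf2 and Vmp1, for Eif2b4 Map3k20 and Ngrn, for Eif2b3 Usp22 and Ncbp1, for Eif2b1 Chmp5 and Slc44a1 and for Eif2s2 Srsf3 and Dpf2, all between 0.08 and 0.13. These gradients share the arrays' depth of signal and the same 4 groups, so the likeness is a description.

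The related gene Eif2s3y, the copy of the gamma subunit on the Y chromosome, has 2 probe sets, which read 0.56 to 64.0 signal units over all arrays and did not pass the filter, where array medians ran from 46.8 to 125. The lowest signal of Eif2s3x on any array was 7165.

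The kinases, phosphatase subunits and other regulators of eIF2 were compared from a list of 19 genes, 18 of them tested. In recruitment 0 of 18 passed with either shRNA, and the list's median change was 0.14 with the Rps19 shRNA and 0.03 with the Rpl11 shRNA. Eif2ak1, the haem-regulated kinase, had recruitments of 0.20, 0.10 and 0.15 with the control construct, 0.22, 0.22 and 0.23 with the Rps19 shRNA and 0.41, 0.52 and 0.94 with the Rpl11 shRNA. Its Rpl11 values lay above all others, and the change was 0.47 (SE 0.16, adjusted p = 0.107). In level 1 of 18 was lower with the Rps19 shRNA, Metap2, an aminopeptidase that binds eIF2 (−0.85, SE 0.13, adjusted p = 0.0285), lost without any 1 gradient of the groups compared (up to 0.163) and without untransduced gradient 1 or 2. Under the Rpl11 shRNA 4 of 18 were higher and 1 was lower in level, where 20.2% of all genes were called. The lower one was Eif2ak1, with levels of 11.47, 12.08 and 11.85 with the control construct and of 11.27, 10.94 and 10.67 with the Rpl11 shRNA. These 2 groups did not overlap. In untransduced cells its levels were 11.19, 11.32 and 12.07, so Rpl11 gradient 1 lay within the untransduced range. Against the control construct Eif2ak1 fell by 0.84 (SE 0.26, adjusted p = 0.0395). That call was lost without control gradient 2 or 3, Rps19 gradient 3 or Rpl11 gradient 2 or 3 (up to 0.133). The double-stranded RNA kinase Eif2ak2 rose by 1.20 (SE 0.23, adjusted p = 0.00652), the kinase inhibitor Dnajc3 by 0.94 (SE 0.24, adjusted p = 0.0203), Nck1, an adaptor that binds eIF2, by 0.78 (SE 0.21, adjusted p = 0.0267), and Cdc123, an assembly factor of eIF2, by 0.57 (SE 0.14, adjusted p = 0.0177). Leaving out 1 gradient ended none of the Eif2ak2 calls, and those of Dnajc3 (without control 3 or Rpl11 2 or 3), Nck1 (control 2, Rpl11 2 or 3) and Cdc123 (control 2 or 3, Rpl11 2) were lost with adjusted p up to 0.0757, 0.0998 and 0.0679. In 12 further alternatives, of scaling, filter, fit or gradients used, the Eif2ak2 call was lost in 1. Those of Dnajc3, Nck1 and Cdc123 were lost in 3 each, that of Eif2ak1 in 5 and that of Metap2 with the Rps19 shRNA in 4.

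In a further list of initiation and ribosome factors and Mars1, 12 genes were tested, and none passed in recruitment with the Rpl11 shRNA. With the Rps19 shRNA Eif1b, a relative of the start codon factor eIF1, fell in recruitment by 1.22 (SE 0.15, adjusted p = 0.0294). The call was lost without untransduced gradient 2 or any 1 control or Rps19 gradient (up to 0.13), and in 5 of 13 further alternatives. Mars1, the methionyl-tRNA synthetase, rose in level by 0.90 with the Rpl11 shRNA (SE 0.16, adjusted p = 0.00553), which held without any 1 gradient. The list had a median recruitment change of −0.03 and −0.05.

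mRNAs known to be read through upstream reading frames when eIF2 is phosphorylated were read from a list of 9, with 8 tested, and 0 of 8 passed in recruitment with either shRNA. Atf4, the transcription factor of that response, had recruitments of −0.32, −0.47 and −0.52 with the control construct, −0.51, −0.59 and −0.65 with the Rps19 shRNA and −0.78, −0.999 and −1.21 with the Rpl11 shRNA. The Rpl11 values were the lowest of the 12, and the change was −0.56 (SE 0.15, adjusted p = 0.0517). Of 18 tested ATF4 target genes 2 rose in recruitment with the Rpl11 shRNA, where 5.67% of all genes were called. These were Sars, the seryl-tRNA synthetase (0.98, SE 0.18, adjusted p = 0.0164), and Psat1, an enzyme of serine synthesis (0.95, SE 0.19, adjusted p = 0.0182). In level, 1 was lower with the Rps19 shRNA (Cebpb, −1.07, SE 0.22, adjusted p = 0.049, and 0.0819 with the replicate block) where 0.807% of all genes were called, and 4 of 18 were lower with the Rpl11 shRNA, near the 20.2% of all genes called, Chac1 (−0.93, SE 0.21, adjusted p = 0.014) with the smallest p. The other lower ones were Cebpb, Sars and Mthfd2. Leaving out 1 gradient ended the recruitment calls of Sars (control 1 or 3, Rpl11 3, adjusted p up to 0.0681) and Psat1 (control 1, 0.0802). It ended the level calls of Chac1 (control 3, 0.0565), of Cebpb with the Rps19 shRNA (any untransduced, control or Rps19 gradient, up to 0.256) and with the Rpl11 shRNA (control 2 or 3, Rpl11 3, up to 0.098), and of Sars and Mthfd2 in 9 and 8 of the 12 cases. Atf5, on the list of upstream reading frames, fell in level by 0.86 with the Rpl11 shRNA (SE 0.23, adjusted p = 0.026), lost without control 2 or 3 or Rpl11 3 (up to 0.088). In 13 further alternatives the recruitment calls of Sars and Psat1 were lost in 3 and 4. In level, with 12 further alternatives, the Rpl11 calls of Atf5 and Chac1 were lost in 3 each, of Cebpb in 5, of Sars in 6 and of Mthfd2 in 9. The Cebpb call with the Rps19 shRNA was lost in 7.

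The subunits of eIF3, which bridges the mRNA and the small ribosomal subunit, were read for comparison. Of 11 tested, 9 were lower on polysomes in untransduced cells and 9 with the control construct, with medians of −1.07 and −1.0, and 8 and 7 with the Rps19 and the Rpl11 shRNA (−0.49 and −0.53). The shares of all genes called in either direction were 40.9%, 36.7%, 36.6% and 28.6% in this order. Their recruitment changes had medians of 0.47 and 0.42, and 0 and 2 of 11 passed, against 0.87% and 5.67% of all genes. The latter were Eif3l (1.31, SE 0.20, adjusted p = 0.00899) and Eif3m (1.06, SE 0.19, adjusted p = 0.0144, lost without control gradient 1). In 13 further alternatives the call of Eif3l was lost in 2 and that of Eif3m in 4.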

How the data were processed

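RNA of the polysomal and subpolysomal pools of 12 gradients was hybridised to 24 Affymetrix arrays. The deposited intensity values are MAS5 signals, per the submitters' processing notes. A 2% trimmed mean near 500 on every array shows a common target of the authors' scaling. It was 499.774 to 499.813 on the Rpl11 arrays and 500 on the other 18, a difference whose cause was not tested. The deposited fraction of polysomal signal equals polysomal over summed signal (largest difference 7.11e-10). Probe sets with 1 gene symbol (34958 of 45101, 932 with several, 9211 with none) were used, those in the lower 50% by mean log2 signal were removed, and the brightest probe set stood for each gene. Values were log2(signal + 7.85), 0.1 times the median signal, so fold changes of dim genes are understated. limma 3.58.1 in R 4.3.3 fitted group over all 12 gradients, with Benjamini-Hochberg adjustment over 11035 genes. The code was tested on simulated data. The number of arrays limits precision, and nothing but the label "biological replicate" describes how gradients were separate. From each list and comparison up to 4 genes past the threshold with the smallest p could be named, or up to 2 where none passed, with Eif2ak1, Atf4, Eif2s3y and both targets always named. The members and lists were chosen with earlier results of these data known. The fits of each pool alone, each probe set alone and Rpl11 gradient 1 alone were chosen after seeing the data. Same-number gradients of the control construct and the Rps19 shRNA deviated together in level (correlations of 0.53, 0.29 and 0.21, all above 0.1). The labels do not say that same-number gradients are pairs, and a pairing was not tested. No other pair of groups had all 3 correlations above 0.1 in level, and 0 of 18 were above it in recruitment.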

Additional observations from a re-analysis of the deposited data

Results flagged for a closer look

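No eIF2 or eIF2B mRNA differed between the Rps19 and the Rpl11 shRNA past the threshold, but genes of the surrounding lists did, by limma's test of that difference (Rps19 minus Rpl11). Eif1b was lower in recruitment by −0.80 (adjusted p = 0.0475), a call lost without any 1 gradient (0.0561 to 0.178). In level 20.5% of all genes differed, and the differences were −0.93 for Metap2, −1.07 for Eif2ak2, 0.85 for Ppp1ca, a phosphatase catalytic subunit, −1.17 for Mars1 and −0.42 for Mcts2. They were −0.61 for Atf4, −0.70 for Aldh18a1, −0.76 for Nars, −0.64 for Asns, −0.82 for Trib3 and −0.66 for Eif3c, with adjusted p from 0.00161 (Metap2) to 0.0329 (Atf4) over these 11 genes. Leaving out 1 gradient ended the calls of Atf4 (Rps19 2 or 3, Rpl11 2 or 3, adjusted p up to 0.121), Trib3 (Rps19 1 or 2, Rpl11 2 or 3, up to 0.0753), Mcts2 (any Rps19, Rpl11 2, up to 0.087) and Asns (Rps19 2, 0.0544). In the 12 further alternatives of scaling, filter, fit or gradients used, the level calls of Atf4 and Mcts2 were lost in 6 each. Those of Ppp1ca, Asns, Trib3 and Eif3c were lost in 3 each, of Eif2ak2 and Aldh18a1 in 2 each and of Nars in 1. Metap2 and Mars1 kept theirs in all 12. With each array centred on its median the median of all genes in this comparison moved from 0.09 to −0.25. The Rpl11 arrays have the high Gapdh ratios given above, whose part in these differences was not tested.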

How the results depend on the processing

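The recruitment changes against the control construct kept their sign in all 25 alternatives for the 7 members with the Rps19 shRNA and for 6 members with the Rpl11 shRNA, and in 23 for Eif2s2, which turned with array weights and without Rpl11 replicate 1. The 2 members called in recruitment with the Rpl11 shRNA became 0 with no filter, with each array centred on its median, with only the groups compared and with only Rpl11 gradient 1, 1 with the mean of a gene's probe sets, and 0 to 3 without 1 gradient. In level, the count for the Rps19 shRNA went from 0 to 3 with array weights. For the Rpl11 shRNA it went from 2 to 0 with no filter, with only the lowest 25% removed, with quantile normalization and with only the groups compared, to 1 with Rpl11 gradient 1 alone, to 5 with weights, and to 0 to 3 without 1 gradient. Between the shRNAs it went from 0 to 1 with centring or Rpl11 gradient 1 alone, to 3 with weights and to 0 to 2 without 1 gradient. Between the pools, the 6 in untransduced cells became 3 with only the groups compared and 3 to 6 without 1 gradient, and the 5 with the control construct became 1 with centring and 4 to 6 without 1 gradient. The 2 with the Rps19 shRNA became 1 with no filter, 5 with centring, 0 with only the groups compared and 0 to 2 without 1 gradient. The 1 with the Rpl11 shRNA became 7 with centring, 0 with a pseudocount of 1 times the median signal, no filter, only the lowest 25% removed, the mean of probe sets, only the groups compared, the replicate block or Rpl11 gradient 1 alone, and 0 to 1 without 1 gradient. Fewer gradients or more genes enter some of these fits, and otherwise the cause was not tested.

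Centring each array on its median turned the pool differences positive, as it moved the median of all genes. In untransduced cells they became 0.61 for Eif2s2, 0.15 for Eif2s3x, 0.51 for Eif2b1, 0.43 for Eif2b2, 0.18 for Eif2b3, 0.38 for Eif2b4 and 0.36 for Eif2b5. With the control construct they were 0.47 for Eif2s2, 0.10 for Eif2s3x, 0.27 for Eif2b1, 0.15 for Eif2b2, 0.13 for Eif2b4 and 0.063 for Eif2b5. With the Rps19 shRNA they were 0.61 for Eif2s3x, 0.58 for Eif2b1, 0.64 for Eif2b2, 0.11 for Eif2b3, 0.57 for Eif2b4 and 0.32 for Eif2b5, and with the Rpl11 shRNA 0.49 for Eif2s2, 0.46 for Eif2b1 and 0.43 for Eif2b4. Quantile normalization turned Eif2s2 with the Rpl11 shRNA to 0.37. Signs also turned in 21 of 700 recruitment changes, 35 of 672 level changes and 17 of 700 pool differences of members across the alternatives, all past the threshold in neither setting, and these were taken to have no direction.

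Over all genes, leaving out 1 gradient gave 0 to 110 calls in recruitment for the Rps19 shRNA (96 with all), 133 to 601 for the Rpl11 shRNA (626) and 0 to 128 between them (61), and the other alternatives 0 to 349, 0 to 1182 and 0 to 290. In level these ranges were 3 to 232 (89), 1081 to 3595 (2231) and 1182 to 3497 (2258), and 6 to 2370, 612 to 6873 and 934 to 6940. The control against untransduced cells gave 0 to 3 in recruitment and 0 to 1 in level. The pools gave 3050 to 4725 (4513), 2545 to 4227 (4049), 2461 to 4315 (4038) and 1961 to 3140 (3155), and 3351 to 7164, 3196 to 6039, 3355 to 6287 and 654 to 6009 otherwise. With the replicate number as a block, level calls for the Rps19 shRNA, where same-number gradients deviated together, went from 89 to 17, with 0 members in both. In recruitment, where no same-number correlation was above 0.1, 335 genes were called for the Rpl11 shRNA and 0 for the Rps19 shRNA. Eif2b2 (adjusted p = 0.0354) and Eif2b5 (adjusted p = 0.0479) were still past the threshold with the Rpl11 shRNA by limma.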
